A study of Mus musculus with 14 samples.

Results

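The ventilation response of lungs that lack JNK1 was read from 7 of the 14 arrays of the series: 4 arrays of jnk1-/- mice after mechanical ventilation and 3 arrays of jnk1-/- controls, chosen by their labelled genotype and treatment alone. All mice were adults on a C57/BL6 background, and in both jnk1-/- groups the gene was deleted in every tissue. The ventilated mice breathed room air for 8 hours at a tidal volume of 10 ml/kg with a positive end-expiratory pressure of 2 cmH2O, under ketamine and acepromazine with hourly pancuronium. The controls were killed directly after the anesthesia, so ventilation, hours under anesthesia and the time of tissue collection cannot be told apart. RNA came from the whole right lung, and in such a tissue fewer cells of a type and less RNA per cell cannot be told apart. The other 7 arrays, 3 wild-type controls and 4 wild-type mice ventilated in the same way, entered the fit for its estimate of the spread and served the comparison of the response between the genotypes.

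JNK1, the product of Mapk8, is a stress-activated protein kinase that phosphorylates c-Jun and other parts of the AP-1 transcription factor. It is switched on by the MAP2 kinases MKK4 and MKK7 when cells are stretched, oxidized or exposed to cytokines, and a second kinase of the family, JNK2 (Mapk9), shares many of its substrates. Mechanical ventilation stretches the lung and is known to call out cytokines, neutrophils, acute phase proteins and stress genes. Which of these genes change when JNK1 is absent is what the jnk1-/- arrays measure.

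The arrays were single-colour CodeLink oligonucleotide arrays with 19621 probes, of which 15353 name 1 gene, so that 13923 genes were measured. All levels are log2 intensities after normalization between arrays, and all differences are ventilated minus control on the same log2 scale, with standard errors and p-values from limma adjusted over all probes. Control replicates 1 and 2 lay closer to each other than any other jnk1-/- pair, with an SD of their difference of 0.33 over the 12159 probes above the floor of the authors' own table, against 0.68 and 0.67 for their pairs with control replicate 3 and 0.45 to 0.69 among ventilated arrays. The Mapk8 probe read 2.08, −0.36 and 2.91 on the control arrays and 4.01, 2.85, 1.34 and 3.11 on the ventilated ones. Wild-type controls read 3.17, 2.67 and 3.23, and 9 of all 14 arrays lay at that floor for this probe, so it checks the genotype little. Which part of Mapk8 it matches was not given in the sources. Mapk9 had a mean of 6.33 in controls and 6.75 after ventilation (difference 0.44, adjusted p = 0.55).

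Ventilation changed 2303 probes in jnk1-/- lungs at an adjusted p under 0.05, 11.7% of those tested. Of these, 1320 (6.73%) were higher and 983 (5.01%) were lower. Among them, 883 rose and 651 fell by more than 2-fold, and 262 rose and 190 fell by more than 4-fold. By each gene's brightest probe, 6.89% of all genes rose and 5.98% fell, with a median difference of −0.06, and this is the background against which the gene lists are read. The groups' arrays did not overlap for 25.7% of all genes. The counts depended on control replicates 1 and 2 (1283 and 1338 probes without either) and on ventilated replicates 2 and 4 (1497 and 1460 without either), and 645 probes passed when the 7 arrays were normalized and fitted alone. The shares of risen and fallen members ran from lists such as glucocorticoid-induced, acute phase and AP-1 genes at 1 end to B cell, squamous and skeletal muscle genes at the other. Of 14 genes that the study had picked from these same arrays 4 rose and 7 fell, and of 4 that it measured by RT-PCR 3 rose and 1 fell (Ccn5), which is no independent evidence of their direction. Of the 14, 1 or 2 were higher without any 1 control or ventilated replicate 2 or 4.

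**Figure D1:**
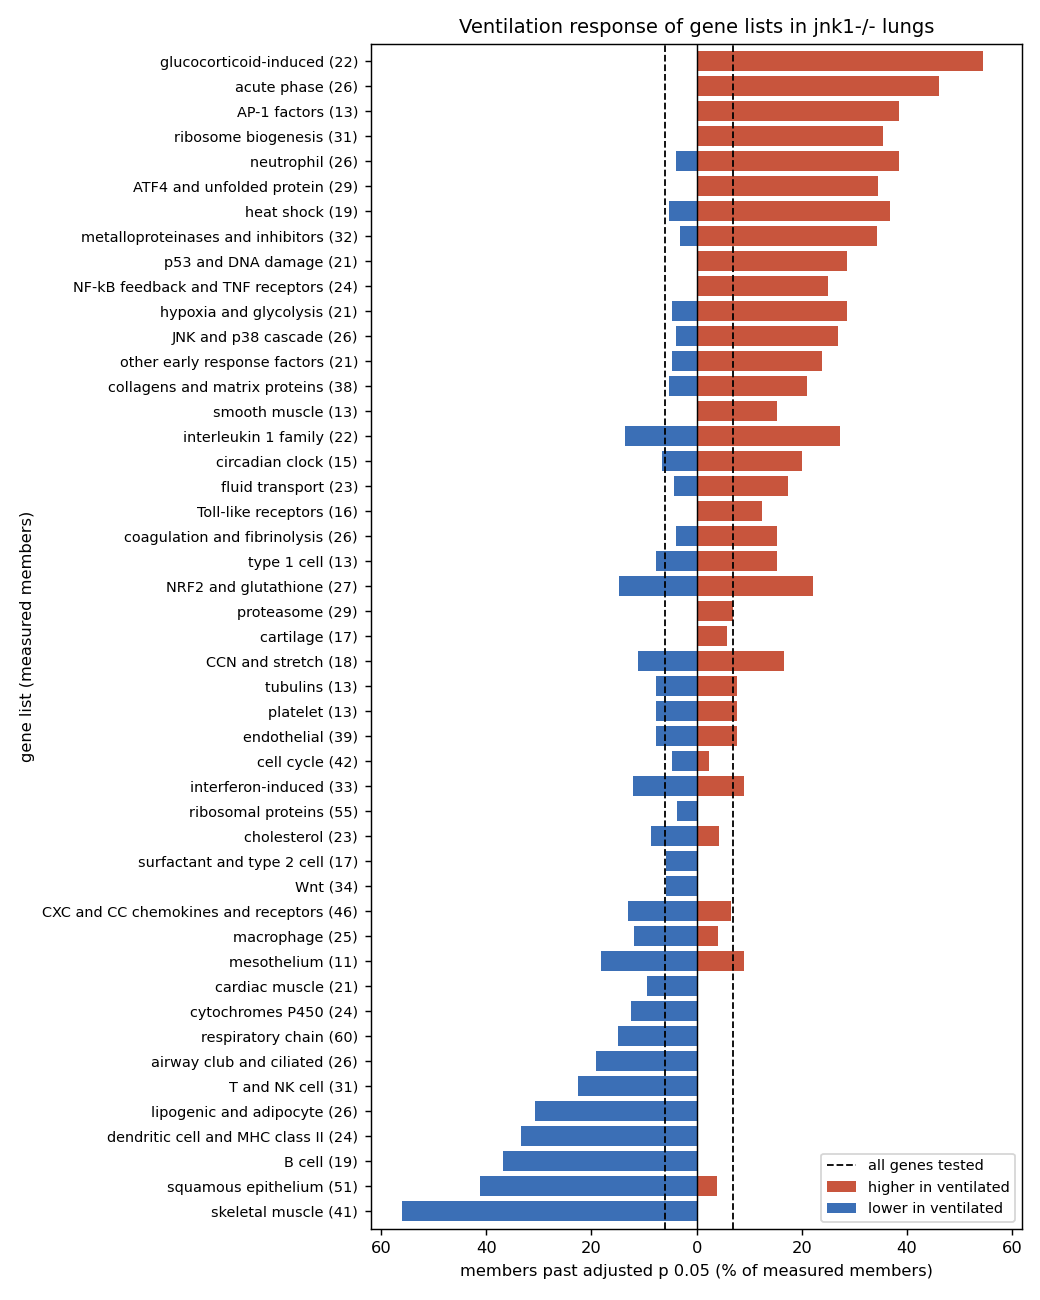
Share of the measured members of each list of a pathway, cell type or tissue with at least 10 measured members that were higher (right, red) or lower (left, blue) in ventilated than in control jnk1-/- lungs at an adjusted p under 0.05, with the number of measured members in parentheses. The dashed lines mark the shares over all genes tested, 6.89% higher and 5.98% lower, and 46.2% of the acute phase list and 56.1% of the skeletal muscle list lay beyond them on the right and on the left.

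Among the kinases upstream and downstream of the missing JNK1, 7 of 26 measured members of the JNK and p38 cascade rose and 1 fell (median 0.18). Without ventilated replicate 3, 8 were higher, and without any 1 of the other arrays between 2 (control replicate 2) and 5 were. Map3k6, the kinase ASK2 at the head of stress cascades, read 7.34, 7.50 and 7.57 in controls and 10.48, 11.30, 10.64 and 10.43 after ventilation, a rise of 3.25 ± 0.24 (SE; adjusted p = 4.28e-05). Map3k8, the kinase TPL2, rose by 2.53 ± 0.55 (SE; adjusted p = 0.0129), from 4.20, 5.01 and 3.54 to 6.58, 6.88, 5.90 and 7.77. No array of one group overlapped the other group for either kinase. Map2k4, which encodes MKK4, was 0.87 higher. Like Map2k3 (1.02) and Dusp8 (1.93), a phosphatase of the JNK and p38 kinases, it lost the call without control replicate 2 or 3 or ventilated replicate 2, among other arrays.

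Of the AP-1 factors, targets and partners of JNK, 5 of 13 measured members rose and none fell, with a median of 1.18 against −0.06 over all genes. Without ventilated replicate 3, 6 were higher, and without any 1 of the other arrays 3 were. Fosl1, the FRA1 subunit, read 4.46, 4.14 and 4.00 in controls and 6.07, 6.77, 6.29 and 6.39 after ventilation, a rise of 2.18 ± 0.26 (SE; adjusted p = 0.000618). Jdp2, a repressor that binds the same sites, rose by 1.34 ± 0.26 (SE; adjusted p = 0.00736), and Mafk, a small Maf partner, by 1.86 ± 0.30 (SE; adjusted p = 0.0034). These 3 kept their call without any 1 of the 7 arrays. Jun itself was 1.33 higher and Atf3 2.90 higher, and both lost the call without any 1 array but ventilated replicate 3, Atf3 with 6.66, 6.47 and 5.20 in controls against 10.53, 9.85, 6.46 and 9.20. On ventilated replicate 3 Atf3 lay inside the range of the controls. Of 21 other early response factors, 5 rose (9 without ventilated replicate 3), among them Myc (1.97 ± 0.30), Ier5 (1.98 ± 0.28) and the orphan nuclear receptor Nr4a3 (1.41 ± 0.23). Klf2, a factor kept up by laminar flow in endothelium, fell from 12.81, 12.90 and 12.41 to 10.72, 11.33, 11.60 and 11.16 (−1.50 ± 0.24, adjusted p = 0.00311).

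Of 21 measured genes of the p53 and DNA damage response, 6 rose and none fell, with 5 to 7 higher on leaving out any 1 array. Cdkn1a, the cell cycle inhibitor p21, read 6.12, 4.94 and 7.89 in controls and 10.74, 11.55, 9.12 and 9.71 after ventilation, a rise of 3.96 ± 0.68 (SE; adjusted p = 0.00436). The controls spread over almost 3 log2 units, yet every ventilated array lay above them. Gadd45a, which binds p21 and stress kinases, rose from 8.46, 8.51 and 8.94 to 11.06, 10.88, 10.01 and 10.76 (2.04 ± 0.24, adjusted p = 0.000504). Gadd45g (1.92), the mTOR inhibitor Ddit4 (1.54) and the death receptor Fas (1.43) rose as well. Gadd45a was also higher in ventilated jnk1-/- than in ventilated wild-type lungs, by 1.16 (adjusted p = 0.0412), while the difference between the responses of both genotypes, 0.95 ± 0.34 (SE), did not pass (adjusted p = 0.264).

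**Figure D2:**
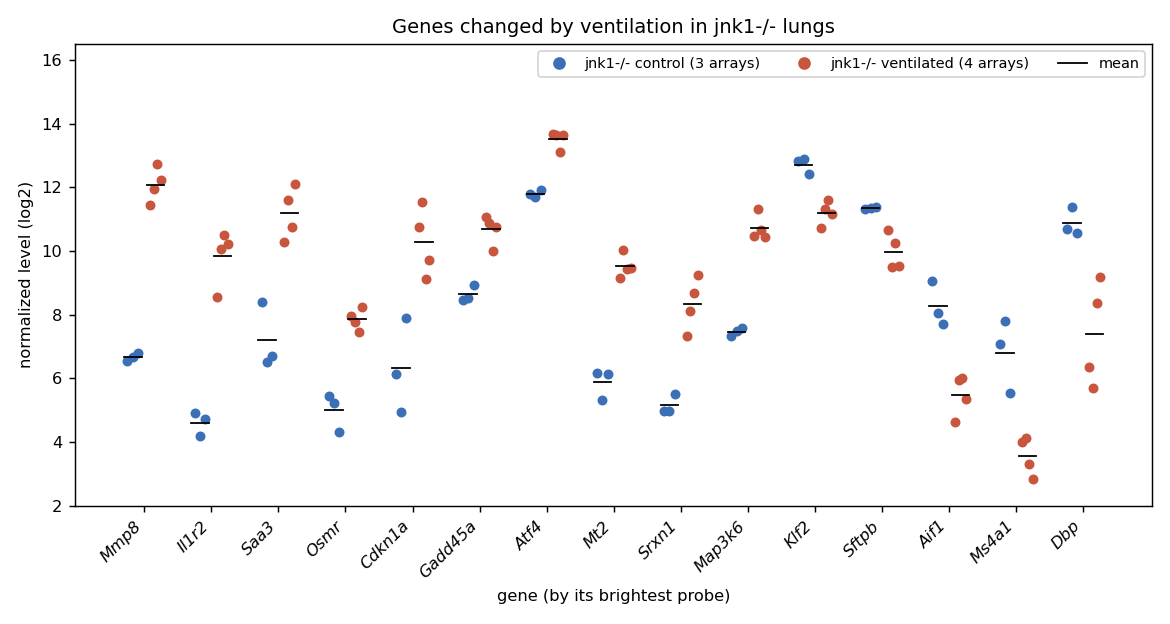
Normalized log2 level of 15 genes in each jnk1-/- array (blue, 3 controls; red, 4 ventilated; black bars, group means), each gene by its brightest probe. In every gene shown, no control array lay within the range of the ventilated arrays, and the largest gap of means is that of Mmp8, at 6.67 and 12.08.

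Heat shock genes encode chaperones that refold damaged proteins. Of 19 measured members, 7 rose and 1 fell (36.8% and 5.3%), against 6.89% and 5.98% of all genes. The median difference was 1.95 against −0.06 over all genes. The arrays did not overlap for 15 of the 19, against 25.7% of all genes. Hspa8, the constitutive HSC70, read 11.91, 12.27 and 11.90 in controls and 14.63, 14.13, 12.67 and 14.48 after ventilation, a rise of 1.95 ± 0.43 (SE; adjusted p = 0.0144). Hspd1, the mitochondrial chaperonin HSP60, read 8.39, 8.30 and 7.76 against 12.36, 11.60, 9.47 and 11.04 (2.97). Dnajb1, a HSP40 co-chaperone, read 6.97, 7.38 and 7.30 against 11.52, 11.25, 7.49 and 11.64 (3.26 ± 0.80, adjusted p = 0.0228). Ventilated replicate 3 was the lowest ventilated array for each of these 3, and for Dnajb1 it lay just above the controls. Hsp90aa1 (2.59), Bag3 (2.84) and Dnaja1 (2.32) were also lowest there among the ventilated arrays. Without ventilated replicate 3, 12 members were higher, and without control replicate 1, 2 or 3 it was 3, 3 and 4. Hspa8 lost the call without control replicate 1, Hspd1 without control replicate 3 and Bag3 without control replicate 2, Hsp90aa1 without control replicate 1 or 2, and Dnajb1 and Dnaja1 without any 1 array but ventilated replicate 3. Hspb8, a small heat shock protein, was the only riser that kept its call without any 1 array (2.31 ± 0.36, adjusted p = 0.00275). Hspb2, a small heat shock protein of muscle, fell by 1.25 from 8.68, 8.52 and 8.12 to 7.06, 7.31, 7.39 and 7.0. Hsph1, named after its value was seen, had a difference of 3.90 that did not pass (adjusted p = 0.0698). In wild-type lungs no member of the list rose past the threshold and 1 fell. The median of the list there was still 1.1, against 0.08 over all probes in wild type. The difference of the response between genotypes passed for no member, with 2.59 ± 1.13 (SE; adjusted p = 0.363) for Dnajb1.

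**Figure D3:**
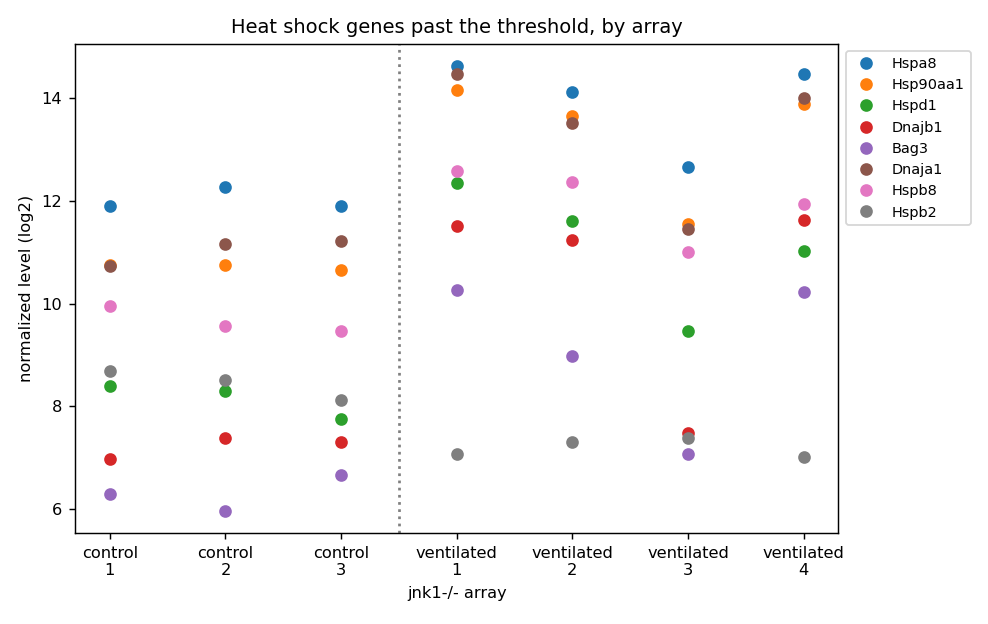
Normalized log2 level of the 8 heat shock genes past the threshold on each jnk1-/- array (3 controls left of the dotted line, 4 ventilated right of it; 1 colour per gene). The risen genes Hspa8, Hspd1, Dnajb1, Hsp90aa1, Bag3 and Dnaja1 sit lower on ventilated replicate 3 than on the other ventilated arrays. Hspa8 reads 12.67 and Dnajb1 7.49 there, while Hspb2 is below its controls on all 4.

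Heat shock elements, to which the factor HSF1 binds, were looked for on both strands of the 250 bases before the start of each gene, as GAANNTTC or TTCNNGAA, in RefSeq promoters of GRCm38.p6. Of the 7 risen genes, 5 have an entry, and 2 of them (Hspd1 and Dnaja1) hold such a match. The share was 12.8% of all 32851 promoters and 13.1% of the tested genes with an entry. The Hspd1 stretch is shown because 3 matches overlap in it (capitals, 144, 139 and 134 bases before the start of 1 of its 2 entries); it lies at chr1:55088053-55088082 on the minus strand.
Hspd1: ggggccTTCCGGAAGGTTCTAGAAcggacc

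ATF4 is the transcription factor through which amino acid shortage and misfolded proteins in the endoplasmic reticulum switch on synthesis and transport genes. Of 29 measured genes of this list, 10 rose and none fell (median 1.0), with 5 higher without control replicate 1 or 2 and 6 without ventilated replicate 1 or 2. Atf4 itself read 11.79, 11.70 and 11.92 in controls and 13.67, 13.63, 13.11 and 13.63 after ventilation, a rise of 1.71 ± 0.20 (SE; adjusted p = 0.000586). Among its targets, Asns, asparagine synthetase, rose from 8.12, 8.26 and 7.71 to 9.72, 9.58, 10.02 and 9.86 (1.76 ± 0.25, adjusted p = 0.00164). Mthfd2, of mitochondrial folate metabolism, rose by 2.29 and Ddit3, the factor CHOP, by 1.45. The arrays of the groups did not overlap for any of these 4. Chac1, which degrades glutathione (1.97), the ER chaperone Hspa5 (1.22) and the splicing target Xbp1 (1.23) were higher past the threshold, but Chac1 lost the call without control replicate 2, Xbp1 without control replicate 1 or 2 or ventilated replicate 1 or 2, and Hspa5 without any 1 array. The response of Atf4 was 1.06 ± 0.29 (SE) larger than in wild type, which did not pass the threshold (adjusted p = 0.163).

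Of the 10 risen genes of the list, 9 have a promoter entry, and 2 of these, Asns and Chac1, hold TGATGNAA, a form of the C/EBP-ATF response element. The share was 3.5% of all promoters and 3.0% of the tested genes with an entry. Both are shown, with the match in capitals, since they are the genes of the list in which the element was found. The Asns match lies 23 bases before the start, in chr6:7693210-7693459 on the minus strand, and overlaps a match to another motif searched. The Chac1 match lies 193 bases before the start on the opposite strand, in chr2:119350992-119351241.
Asns: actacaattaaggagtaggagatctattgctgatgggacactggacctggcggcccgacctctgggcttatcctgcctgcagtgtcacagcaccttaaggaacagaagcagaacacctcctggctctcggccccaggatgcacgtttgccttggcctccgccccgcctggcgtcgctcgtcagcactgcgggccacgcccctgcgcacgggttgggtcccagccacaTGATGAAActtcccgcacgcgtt
Chac1: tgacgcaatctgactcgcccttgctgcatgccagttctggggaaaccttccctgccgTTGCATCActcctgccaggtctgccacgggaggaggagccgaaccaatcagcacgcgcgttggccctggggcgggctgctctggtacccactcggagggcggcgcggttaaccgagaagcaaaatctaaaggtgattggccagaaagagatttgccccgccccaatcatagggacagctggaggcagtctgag

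Metallothioneins bind zinc and copper and are switched on through metal response elements. Of 9 measured genes of metal handling, 1 rose, Mt2, from 6.18, 5.32 and 6.15 to 9.16, 10.03, 9.44 and 9.46 (3.64 ± 0.33, adjusted p = 0.000108), and 2 fell. Slc39a4, a zinc importer, fell by 1.13, from 7.70, 7.98 and 8.09 to 6.74, 6.77, 6.79 and 6.87. Mt4, a metallothionein of squamous epithelium, read 10.27, 9.54 and 10.03 in controls, while its 4 ventilated arrays were all at the authors' floor, which makes it at least 98.1-fold lower (adjusted p = 8.49e-05). Such a bound is the smaller of 2 folds. The first sets the mean of the bright group against, on each dim array, the higher of the probe's own level and the lowest level above the authors' floor, and the second is the fold between the groups in the authors' own table with its floor. The Mt2 promoter is shown because 5 matches to the core TGCNCNC stand in it (capitals), 223, 178, 128, 113 and 50 bases before the start, in chr8:94172368-94172617. The core is short, and 44.4% of all promoters and 53.4% of the tested genes with an entry hold it at least once.
Mt2: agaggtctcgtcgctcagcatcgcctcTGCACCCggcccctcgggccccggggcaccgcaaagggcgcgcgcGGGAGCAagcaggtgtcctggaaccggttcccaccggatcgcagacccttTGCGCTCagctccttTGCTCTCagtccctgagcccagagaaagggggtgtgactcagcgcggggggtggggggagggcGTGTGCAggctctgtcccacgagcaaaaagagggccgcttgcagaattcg

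NRF2 is the factor that answers oxidants by raising the synthesis and recycling of glutathione and thioredoxin. Of 27 measured genes, 6 rose and 4 fell (median 0.19). Srxn1, sulfiredoxin, which repairs oxidized peroxiredoxins, read 4.99, 4.96 and 5.5 in controls and 7.34, 8.13, 8.67 and 9.25 after ventilation, a rise of 3.20 ± 0.48 (SE; adjusted p = 0.0022). Gclc, the rate-limiting enzyme of glutathione synthesis, rose by 2.66 ± 0.37 at its brightest probe and by 3.52 at another, and Hmox1, heme oxygenase 1, by 2.43 ± 0.47. Txnrd1 (1.87) and Gsr (2.18), the reductases of thioredoxin and glutathione, rose with them, and all 5 kept the call without any 1 array. Gstt2, a glutathione transferase, fell by 2.29, from 5.29, 5.14 and 7.11 to 3.15, 3.30, 3.69 and 4.09, and the other genes that fell, Ephx1 (−0.85), Gstm2 (−0.69) and, by less than these, the catalase gene Cat, each lost the call without control replicate 1 or 2, among other arrays.

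TGANTCA, a form of the AP-1 site, was searched in the same promoters, and the letters can also be part of the longer element that NRF2 binds. Among the 1014 genes with any risen probe, 805 have an entry and 6.1% of these hold the match, against 7.2% of the 11072 tested genes with an entry, so that the share among risen genes lay near that of all genes. The Srxn1 promoter, at chr2:152105274-152105523, is shown because it holds 2 matches (capitals), 102 and 45 bases before the start.
Srxn1: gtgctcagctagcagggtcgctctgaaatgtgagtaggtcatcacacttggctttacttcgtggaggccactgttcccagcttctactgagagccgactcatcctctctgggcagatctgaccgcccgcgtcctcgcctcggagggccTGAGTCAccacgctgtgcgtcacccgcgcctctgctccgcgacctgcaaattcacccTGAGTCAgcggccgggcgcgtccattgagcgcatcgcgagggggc

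Of 21 measured genes of hypoxia and glycolysis, 6 rose and 1 fell, with 2 higher without control replicate 1 or 2. Adm, the vasodilator adrenomedullin, rose from 4.09, 2.48 and 3.38 to 6.10, 6.29, 6.32 and 6.46 (2.97 ± 0.53, adjusted p = 0.00517). It kept its call without any 1 array, whereas the glucose transporter Slc2a1 (1.17) lost it without control replicate 1 or 2 and hexokinase Hk2 (0.83) without control replicate 2.

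Acute phase proteins are secreted into plasma and tissue in answer to interleukin 6 and interleukin 1. Of 26 measured genes of this list, 12 rose and none fell, with a median of 1.12. Without control replicate 1, 6 were higher, and without control replicate 2 or ventilated replicate 2 or 4, 7 were. Saa3, serum amyloid A3, read 8.39, 6.51 and 6.70 in controls and 10.28, 11.60, 10.75 and 12.11 after ventilation, a rise of 3.99 ± 0.61 (SE; adjusted p = 0.00223). Osmr, the oncostatin M receptor, rose from 5.45, 5.23 and 4.31 to 7.97, 7.76, 7.47 and 8.24 (2.86 ± 0.31, adjusted p = 0.000362). Serpina3n, a protease inhibitor, rose by 2.23, Socs3, which ends receptor signalling, by 2.93 and the factor Cebpd by 1.65. No array of one group overlapped the other for any of these 5 genes. Il6 was 2.93 higher and Stat3, which carries its signal, 1.02 higher, and the call was lost without control replicate 1 for Il6 and without any 1 array but ventilated replicate 3 for Stat3. Saa genes are a family of close copies, and whether a probe reads 1 member was not tested.

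In the interleukin 1 family, 6 of 22 measured genes rose and 3 fell (1 lower without control replicate 1 or ventilated replicate 1 or 2). Of the 3 that fell, 1 lay above the authors' floor on all 7 jnk1-/- arrays. At that floor on all 4 ventilated arrays were Il1a, Il1rl2, Il1f8 and Il1f6, which the squamous list also holds. Il1r2, the decoy receptor, had one of the largest rises on the arrays, from 4.90, 4.19 and 4.71 to 8.56, 10.05, 10.49 and 10.22 (5.23 ± 0.59, adjusted p = 0.000419). Il1f9, interleukin 36 gamma, rose by 1.80, and Myd88, the adaptor of interleukin 1 and Toll-like receptors, by 1.26. Il18rap, the accessory chain of the interleukin 18 receptor, lay at the authors' floor on all 3 controls and was at least 3.93-fold higher (adjusted p = 0.013), a call that the authors' own values did not give. Il1b read 8.71, 8.92 and 9.14 against 11.70, 9.83, 10.15 and 11.39 (1.84 ± 0.43, adjusted p = 0.018), and lost the call without control replicate 1 or 2 or ventilated replicate 4. Pycard, the inflammasome adaptor ASC, fell from 8.72, 8.22 and 8.21 to 6.43, 7.15, 7.33 and 7.04 (−1.40 ± 0.23, adjusted p = 0.00321). In wild type the response of Pycard was −0.01, and the difference of −1.39 ± 0.32 (SE) did not pass (adjusted p = 0.101).

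Of 24 measured genes of NF-kB feedback and TNF receptors, 6 rose and none fell. Without ventilated replicate 3, 7 were higher and 2 lower, and without any 1 of the other arrays 2 or 3 were. Tnfrsf12a, the TWEAK receptor FN14, rose from 5.91, 6.0 and 6.54 to 9.66, 9.73, 8.30 and 8.89 (2.99 ± 0.34, adjusted p = 0.00042) and kept the call without any 1 array. Nfkbia, the NF-kB inhibitor, differed by 0.93 and lost the call without control replicate 1 or 3 or ventilated replicate 1 or 2. Among 16 Toll-like receptor genes, Myd88 and Cd14 (1.01) rose, Cd14 with the call lost without any 1 array but ventilated replicates 1 and 3, and none fell.

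The largest rises that the naming rule picked, those of Mmp8 and Il1r2, were of neutrophil markers. Of 26 measured neutrophil markers, 10 rose and 1 fell, with 6 higher without control replicate 2 and 7 or 8 without any 1 of the other arrays. With the authors' own values the marker Ltf was lower past the threshold (−2.19, limma, adjusted p = 0.0465). No marker was lower without control replicate 1 or 2 or ventilated replicate 1, 2 or 4. Mmp8, neutrophil collagenase, read 6.54, 6.67 and 6.80 in controls and 11.44, 11.93, 12.72 and 12.23 after ventilation, a rise of 5.41 ± 0.32 (SE; adjusted p = 8.66e-06). Clec4d, a lectin receptor of myeloid cells, rose from 7.02, 7.62 and 6.67 to 10.72, 10.90, 10.31 and 10.41 (3.48 ± 0.32, adjusted p = 0.000141). Mrgpra2b rose by 4.43 ± 0.46 and the calcium-binding protein S100a8 by 3.15, while Trem1, which amplifies inflammatory signals, was at the authors' floor on all 3 controls and at least 4.95-fold higher (adjusted p = 0.00288). The granule proteins of immature neutrophils Mpo, Elane and Prtn3 were at the authors' floor in each ventilated jnk1-/- lung and also in the controls, but for 1 control of Prtn3. Cxcr2, the receptor for neutrophil chemokines, was 2.65 higher but lost the call without any 1 array other than control replicate 3 or ventilated replicate 3, and Csta2, a stefin of a multigene family, rose by 3.51. Il1r2 also stands in the interleukin 1 list and Mmp8 in the metalloproteinase list, so the lists are not independent of each other.

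Of 46 measured chemokines and receptors, 3 rose and 6 fell (3 lower without control replicate 1), with a median of −0.16. Ccr1, a receptor of neutrophils and monocytes, rose from 6.57, 6.39 and 5.94 to 8.33, 8.32, 8.80 and 8.44 (2.17 ± 0.31, adjusted p = 0.00157). Ccl25 rose by 1.22. Ccl24, an eosinophil attractant, fell from 6.21, 5.57 and 4.59 to 2.86, 1.98, 3.42 and 2.79 (−2.69 ± 0.45, adjusted p = 0.0037). Ventilated replicates 2 and 4 lay at the authors' floor for it, and its difference in the authors' own values was −2.1. Ccl8, a monocyte attractant, fell from 8.42, 6.68 and 5.05 to 3.15, 4.14, 4.25 and 3.46 (−2.97 ± 0.64, adjusted p = 0.0129). The control arrays of Ccl8 spread widely and none of them reached down to the ventilated arrays. Ackr4, a receptor that removes CCL19, CCL21 and CCL25, had its 4 ventilated arrays at the authors' floor and was at least 3.95-fold lower.

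Of 19 measured B cell genes, 7 fell and none rose (median −1.42), with 6 to 8 lower on leaving out any 1 array. Ms4a1, which encodes CD20, read 7.08, 7.81 and 5.54 in controls and 4.01, 4.13, 3.30 and 2.83 after ventilation, a fall of 3.24 on the log2 scale (SE 0.59, adjusted p = 0.00586). Ighm, the heavy chain of IgM, fell from 11.56, 11.76 and 9.82 to 8.29, 8.13, 6.87 and 7.54 (−3.34 at its brightest probe, −3.52 at another), and the receptor chains Cd79a and Cd79b both fell by 1.41. Jchain, which joins IgM and IgA polymers, fell by 3.38 and was 3.66 higher in jnk1-/- than in wild-type controls. Of 31 genes that mark T and NK cells 7 were lower and 0 higher, with 3 lower without control replicate 1 or 2 and 4 without ventilated replicate 3. Cd2 fell from 9.81, 9.85 and 9.32 to 8.07, 8.48, 7.88 and 7.62 (−1.65), and Ctsw (−2.41) and Klrd1 (−2.58), genes of cytotoxic cells, fell as well.

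Of 24 antigen presentation genes, of dendritic cells and the MHC class II complex, 8 were lower and 0 higher, with 2, 5 and 4 lower without control replicate 1, control replicate 2 or ventilated replicate 4. In the controls 5 of the 24 were higher and 1 was lower in jnk1-/- than in wild type. H2-DMa, which loads peptides onto class II molecules, fell from 10.76, 10.34 and 10.15 to 8.72, 9.06, 8.79 and 8.09 (−1.75 ± 0.26, adjusted p = 0.00205), and H2-DMb1 fell by 1.86. H2-Aa (−1.08) and H2-Eb1 (−1.07), chains of the class II molecules themselves, lost the call without control replicate 1. Among 25 macrophage genes, 1 rose and 3 fell (6 lower without control replicate 3). Ly6c1, listed there and also made by lymphocytes and endothelium, rose by 2.71. Aif1, a macrophage scaffold protein, fell from 9.05, 8.06 and 7.71 to 4.63, 5.95, 6.0 and 5.35 (−2.79 ± 0.37, adjusted p = 0.0011), with Fabp5 (−1.14) and Ctsk (−1.03). Over all macrophage markers the shares were 4% higher and 12% lower, against 6.89% and 5.98% of all genes.

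Of 33 interferon-induced genes, 3 were higher and 4 lower (2 lower without control replicate 1). These shares were 9.1% and 12.1%, against 6.89% and 5.98% of all genes. Slfn1 rose by 2.30 and Slfn4, at the authors' floor on all 3 controls, was at least 5.82-fold higher. The inducible proteasome subunits fell, Psmb9 from 9.39, 8.77 and 8.96 to 6.23, 6.97, 7.24 and 6.54 (−2.30 ± 0.27, adjusted p = 0.000546) and Psmb8 by 1.21. Of 29 proteasome genes of the standard list, 2 rose (6.9%) and none fell. Of 13 platelet genes 1 rose and 1 fell (7.7% each). Of 7 erythroid genes none passed, and 0 of 7 were without overlap between the groups, against 25.7% of all genes. Rhag had control and ventilated means of 8.69 and 8.34, and Car2 of 8.37 and 8.09 (adjusted p = 0.41 and 0.50 from limma).

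Of 32 measured metalloproteinases and their inhibitors, 11 rose and 1 fell, a median of 0.85, with 9 to 12 higher on leaving out any 1 array. Lox, which cross-links collagen and elastin, read 5.91, 6.04 and 6.05 in controls and 8.25, 8.52, 9.05 and 8.89 after ventilation, a rise of 2.67 ± 0.24 (SE; adjusted p = 0.000108). Mmp3, stromelysin, rose from 6.53, 5.42 and 5.20 to 8.19, 8.84, 8.14 and 8.68 (2.75 ± 0.34, adjusted p = 0.000783), and was 2.27 lower in jnk1-/- than in wild-type controls (adjusted p = 0.00747). Adamts9, which cleaves proteoglycans, rose by 3.06, Timp1 by 2.01, Adam8 by 1.74, Timp3 by 1.43 and the gelatinase Mmp2 by 1.23. Mmp11 was the member that fell, from 8.22, 8.63 and 8.40 to 6.0, 6.47, 7.33 and 6.62 (−1.81 ± 0.29, adjusted p = 0.00303).

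Of 38 collagens and matrix proteins, 8 rose and 2 fell, with 3 higher without control replicate 2 and 5 without control replicate 3 or ventilated replicate 1 or 2. The basement membrane genes Lama2 (1.48 ± 0.20), Col4a1 (1.34 ± 0.22) and Nid1 (0.95 ± 0.19) rose and kept the call without any 1 array. Lama2 read 7.62, 7.14 and 6.98 in controls and 8.62, 8.88, 8.55 and 8.86 after ventilation. Col1a1, of the fibrillar collagen of scars, was 1.37 higher and lost the call without control replicate 2 or 3. Lum, a small proteoglycan, differed by −1.61, and Fmod, another, had its 4 ventilated arrays at the authors' floor and was at least 1.25-fold lower. Both lost the call without control replicate 1 or 2 or ventilated replicate 2 or 4, Lum also without ventilated replicate 1, and Fmod did not pass with the authors' own values (adjusted p = 0.107).

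Coagulation starts at tissue factor. F3, which encodes it, rose from 7.98, 8.42 and 7.89 to 9.77, 10.25, 10.68 and 10.07 (2.10 ± 0.30, adjusted p = 0.00155). Plaur, the urokinase receptor, rose by 2.07 and Plat, tissue plasminogen activator, by 2.12, and of 26 genes of coagulation and fibrinolysis 4 rose and 1 fell. Of 18 genes of the CCN family and of stretched cells, 3 rose (5 without ventilated replicate 3) and 2 fell. Ccn5, a growth inhibitor of smooth muscle also known as WISP2, read 9.12, 8.73 and 8.60 against 6.53, 7.15, 8.46 and 7.25 (−1.47 ± 0.36, adjusted p = 0.0237), and lost the call without control replicate 1 or 2 or ventilated replicate 2 or 4 (adjusted p up to 0.089). Ankrd1, a target of the stretch-sensitive factor YAP, differed by −2.04 and lost the call without any 1 array but ventilated replicate 3.

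Of 39 endothelial genes, 3 rose and 3 fell, with 1 higher without control replicate 1. The shares were 7.7% each, against 6.89% and 5.98% of all genes. Selp, P-selectin, which slows leukocytes on the vessel wall and is also stored in platelets, rose from 6.24, 6.19 and 6.55 to 8.94, 9.01, 8.30 and 8.59 (2.38 ± 0.23, adjusted p = 0.000209). Acvrl1, a receptor of the TGF-beta family in endothelium, fell by 1.18. These 2 genes and Klf2 kept their call without any 1 array.

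In alveolar epithelium 5.9% of type 2 cell genes were lower. Of type 1 cell genes 15.4% were higher and 7.7% lower, against 6.89% and 5.98% of all genes. Of 17 genes of type 2 cells, 1 fell and none rose (median −0.15). Sftpb, surfactant protein B, read 11.31, 11.34 and 11.39 in controls and 10.66, 9.48, 10.26 and 9.52 after ventilation (−1.36 ± 0.30, adjusted p = 0.0137). Its 3 controls lay within 0.1 of each other and above every ventilated array, and its level was 1.78 higher in jnk1-/- than in wild-type controls (adjusted p = 0.0121). Of 13 genes listed for type 1 cells, 2 rose and 1 fell, with Krt7, a keratin of simple epithelium, up by 0.92 ± 0.17 (SE; adjusted p = 0.00538). Of 26 airway genes, 5 fell and none rose, with 3 lower without control replicate 1 or 2. Dynlrb2, a dynein light chain of cilia, fell from 10.50, 10.78 and 10.25 to 9.23, 9.23, 9.39 and 9.26 (−1.23 ± 0.18, adjusted p = 0.00199), and Bpifa1, a secreted airway protein, fell by 2.61. Krt5, a keratin of basal cells that the squamous list also holds, fell by 4.52.

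Of 23 genes of ion and fluid transport, 4 rose and 1 fell. Atp1b1, a subunit of the sodium pump that drives alveolar fluid clearance, rose from 8.46, 8.78 and 8.62 to 10.14, 10.13, 10.09 and 10.27 (1.54 ± 0.25, adjusted p = 0.00321). Slc12a2, a chloride cotransporter, rose by 0.87 and Nedd4l, the ligase that withdraws the epithelial sodium channel, by 1.0. Scnn1a, a subunit of that channel, differed by 0.54 and lost the call without any 1 of the 7 arrays.

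Among the lists with at least 10 measured members, that of glucocorticoid-induced genes had the largest share of risen members. In it 12 of 22 rose and none fell, 54.5% against 6.89% of all genes, with 9 to 11 higher on leaving out any 1 array. Klf9, a nuclear receptor target, rose from 9.83, 10.03 and 10.33 to 12.47, 12.22, 11.26 and 11.55 (1.81 ± 0.29, adjusted p = 0.00283). Errfi1, an inhibitor of the EGF receptor, rose from 9.74, 10.14 and 10.27 to 11.75, 11.70, 11.12 and 11.42 (1.45 ± 0.21, adjusted p = 0.00182). Angptl4, an inhibitor of lipoprotein lipase (2.31), Hif3a, a hypoxia factor (2.32), and Pik3r1, the regulatory subunit of PI3 kinase (2.00), rose too, with Mt2, Ddit4 and Cebpd, named above. In wild type 11 of the 22 rose.

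Of 15 clock genes, 3 rose and 1 fell, with 1 higher without control replicate 1 or 2 or ventilated replicate 1, 2 or 4. Dbp, an output gene of the clock with a strong daily rhythm, read 10.69, 11.38 and 10.58 in controls and 6.34, 5.70, 8.37 and 9.19 after ventilation (−3.48 ± 0.70, adjusted p = 0.00956), against −3.07 in wild type. Ventilated replicates 1 and 2 lay about 2 log2 units or more below replicates 3 and 4, and all 4 below the controls. Rora, which drives clock genes, rose by 1.24.

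Of 26 measured genes of adipocytes and fat synthesis, 8 fell and none rose (median −1.16), with 15 lower without control replicate 3, 3 without control replicate 1 or 2 and 5 without ventilated replicate 1. Ucp1, of brown fat, read 11.30, 10.36 and 5.36 in controls, so that control replicate 3 stood about 5 log2 units below the other controls. Adipoq, adiponectin, read 12.66, 12.11 and 9.93 against 8.39, 9.54, 8.88 and 8.87 (−2.64 ± 0.56, adjusted p = 0.0118), and lost the call without control replicate 1 or 2, as Ucp1 (−4.71) did without either of these or ventilated replicate 1, 3 or 4. The fat storage genes Cidec (−1.19), Thrsp (−3.89) and Car3 (−3.31) kept the call without any 1 array. Pck1, of gluconeogenesis and fat, read 10.84, 9.95 and 6.74 against 3.58, 5.91, 5.28 and 3.94 (−4.50), and lost the call without control replicate 1 or 2 (adjusted p up to 0.0576). How much fat the dissected lungs carried was not tested. Among 23 cholesterol genes, Pmvk, phosphomevalonate kinase, rose from 10.25, 10.84 and 10.74 to 14.17, 13.80, 12.97 and 13.70 (3.05 ± 0.26, adjusted p = 8.49e-05), while Abcg1, a sterol exporter, fell by 1.56.

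Ribosome biogenesis genes make and process ribosomal RNA in the nucleolus. Of 31 measured members, 11 rose and none fell, with 6 higher without control replicate 3, 7 without ventilated replicate 4 and 8 to 12 without any 1 of the other arrays. Gnl3, nucleostemin, read 8.19, 8.28 and 8.08 in controls and 9.53, 9.29, 9.36 and 9.17 after ventilation (1.15 ± 0.15, adjusted p = 0.00103). Ddx21, a nucleolar helicase, rose by 1.33 ± 0.17, Nop56 by 1.36 and Nop58, partners in the modification of ribosomal RNA, by 1.76. All 4 kept the call without any 1 array. In wild type 2 members rose, while the median of the list was 0.51 there and 0.58 in jnk1-/-. The difference of the response between genotypes passed for no member. Of 55 ribosomal proteins, 2 fell and none rose, both with the call lost without ventilated replicate 1 or 2. Of 60 genes of the respiratory chain, 9 fell and none rose. Without ventilated replicate 3, 12 were lower, and without any 1 of the other arrays between 2 (control replicate 1) and 6 were. Cox7a2 read 6.46, 10.83 and 11.45 in controls and 5.26 to 5.53 after ventilation (−4.17), with control replicate 1 far below the others. In wild type it read 12.05 to 12.21 in controls and 11.60 to 11.88 after ventilation. The ventilated jnk1-/- arrays thus differed from the ventilated wild-type ones by −6.35 (limma, adjusted p = 0.00266), and what set the low arrays apart was not tested. Atp5l fell by 1.0 ± 0.21.

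In the remaining pathways the shares of called members lay on both sides of those over all genes, 6.89% higher and 5.98% lower. Of cell cycle genes 2.4% were higher and 4.8% lower, and of cytochrome P450 genes 12.5% were lower. Of 42 cell cycle genes, 1 rose and 2 fell, each with the call lost without control replicate 1. Of 34 Wnt genes, 2 fell, Wnt3a from 7.96, 8.12 and 7.48 to 5.6, 6.17, 6.47 and 6.14 (−1.76), and Sfrp2, a secreted inhibitor, which had its 4 ventilated arrays at the authors' floor and was at least 2.47-fold lower. Of 24 cytochrome P450 genes, 3 fell (1 without control replicate 1 or 2 or ventilated replicate 1, 2 or 4). Cyp2j9 stood at −2.65, and at −1.81 with the authors' own values and their floor. Of 7 measured EGF family genes, Errfi1 rose. Of 13 tubulin genes, Tubb6 rose by 1.51 and 1 fell.

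Skeletal muscle genes, which lung tissue makes little of, had the largest share of lower members among the 54 lists. Of 41 measured skeletal muscle genes, 23 fell and none rose (56.1% against 5.98% of all genes), with 18 to 22 lower on leaving out any 1 array. Acta1, skeletal actin, read 11.01, 10.55 and 11.34 in controls and 3.41, 3.75, 3.13 and 4.11 after ventilation, a fall of 7.37 on the log2 scale (SE 0.59, adjusted p = 6.4e-05). Mylpf, the fast myosin light chain, read 10.66, 10.35 and 11.09 against 3.46, 3.87, 4.81 and 4.23 (−6.61 ± 0.31, adjusted p = 1.46e-06), and Tnni2, fast troponin I, 11.07, 10.78 and 10.78 against 7.05, 7.21, 6.91 and 7.09 (−3.81). Tnnt3 (−4.66) and Atp2a1 (−4.34), of fast fibres, and Myh8 (−2.82), perinatal myosin, fell with them. All 3 jnk1-/- controls thus carried these transcripts at a high level. Of the 41 genes, 18 were higher in jnk1-/- than in wild-type controls and none was lower, while 4.06% of all probes differed either way. Of the 23 that fell, 13 lay above the authors' floor on all 7 jnk1-/- arrays. The summed level of the list was 14.34 to 14.98 on the log2 scale in jnk1-/- controls, 11.97 to 12.35 in jnk1-/- ventilated, 12.68 to 13.81 in wild-type controls and 12.11 to 12.74 in wild-type ventilated lungs.

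Of 51 measured genes of squamous epithelium, another tissue of which lung holds little, 21 fell and 2 rose, with 17 to 20 lower on leaving out any 1 array. The fallen share was 41.2% against 5.98% of all genes, and 8 of the 21 lay above the authors' floor on all 7 jnk1-/- arrays. In the controls 18 were higher and 1 was lower in jnk1-/- than in wild type, while 4.06% of all probes differed either way. Cnfn, a cornified envelope protein, read 8.98, 8.02 and 8.35 in controls and 5.52, 5.24, 5.09 and 5.03 after ventilation (−3.23 ± 0.25, adjusted p = 5.76e-05), and Rptn, of the same envelope, fell by 2.97. Ly6k (−3.51) and Defb5 (−3.09), both outside the list, and Ly6d (−2.97), which the B cell list also holds, were among the largest falls of all. The response of Ly6d in wild type was −2.53 (limma, adjusted p = 0.00277), and its controls differed between genotypes by 0.41 (adjusted p = 0.544). Krt14, Lgals7, Crct1, Defb4 and Tgm3 had all 4 ventilated arrays at the authors' floor and were at least 6.25-fold, 15.8-fold, 24.3-fold, 75.3-fold and 9.58-fold lower. The summed level was 13.35 to 14.08 in jnk1-/- controls against 12.51 to 12.70 in jnk1-/- ventilated, 11.76 to 11.90 in wild-type control and 12.15 to 12.98 in wild-type ventilated lungs. Sfn, stratifin, which p53 also switches on, went the other way, from 8.26, 7.94 and 8.53 to 10.98, 11.19, 11.54 and 11.14 (2.97 ± 0.43, adjusted p = 0.00173). Keratins, defensins and small proline-rich proteins are families of close copies, and whether their probes read 1 member was not tested. What tissue carried these genes in the jnk1-/- controls, and its part in the other falls, was not tested. Of the other tissues looked at, cardiac muscle had 2 of 21 genes lower, smooth muscle 2 of 13 higher and cartilage 1 of 17 higher. Mesothelium had 1 of 11 higher and 2 lower, thymus 1 of 8 higher and thyroid and parathyroid none. Over all genes the shares were 6.89% higher and 5.98% lower. Without control replicate 1 or 2, no smooth muscle or cartilage gene was higher and no mesothelium gene lower, and 1 cardiac muscle gene was lower.

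**Figure D4:**
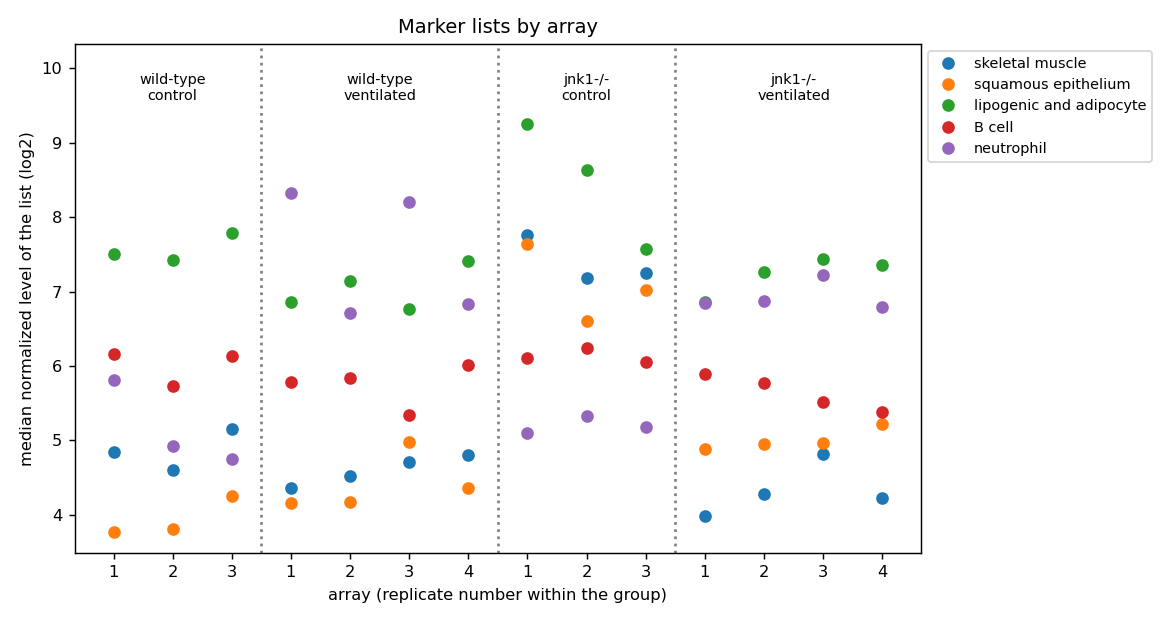
Median normalized log2 level over the measured members of 5 marker lists on each of the 14 arrays, in 4 groups parted by dotted lines (1 point per array and list). The skeletal muscle and squamous lists stand higher in the 3 jnk1-/- controls than in every other array, adipocyte genes are highest in jnk1-/- control replicates 1 and 2, and neutrophil genes are higher in all 8 ventilated arrays than in the 6 controls.

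Set against wild type, the response of jnk1-/- lungs shared many of its rises. Of the 1320 risen probes 214 rose in wild type as well and none fell there, and of the 983 fallen probes 163 fell there and 2 rose. The 377 probes changed in the same direction are 16.4% of the jnk1-/- calls and 51.9% of the 726 wild-type calls, which made up 3.7% of all probes (2.2% higher, 1.5% lower). Of the 15 largest rises that the naming rule picked, 13 also passed in wild type, with Mmp8 at 5.31, Il1r2 at 6.25, Mt2 at 4.17 and Cdkn1a at 3.96 there, and the difference of the response passed for none of the 15. Tti2, a chaperone of large kinases, rose by 3.10 in jnk1-/- and 3.40 in wild type, from 8.35, 8.27 and 8.40 to 11.56, 11.88, 11.21 and 11.08. Mideas, of a histone deacetylase complex, rose by 3.16 and 1.29. Of the 15 largest falls, 3 passed in wild type and 7 passed the test of the difference.

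The difference of the response itself passed for 78 probes, 0.398% of those tested, with 40 higher (0.204%) and 38 lower (0.194%) in jnk1-/-. Of these, 72 also differed between jnk1-/- and wild-type controls, all with the opposite sign, and 5 differed between the ventilated genotypes, against 4.06% and 0.525% of all probes. The controls enter the difference of the response with a minus sign, so these counts do not stand apart from the choice of the 78 probes. The count was 37, 42 and 50 without jnk1-/- control replicate 2 or 3 or ventilated replicate 2, and 118 without ventilated replicate 3. It was 248, 32 and 49 without wild-type control replicate 1, 2 or 3, and 46 without wild-type ventilated replicate 3 or 4. The skeletal muscle list holds 10 of the 78 and the squamous list 9, with Mylpf at −5.46 (adjusted p = 0.000634) and Acta1 at −8.34, for which 2 of 4 jnk1-/- ventilated arrays and 1 wild-type control were at the authors' floor. Among the probes lower in jnk1-/- outside both lists, Them5, a thioesterase of mitochondria, differed by −4.04, with −1.85 in jnk1-/- and 2.19 in wild type, and Gsdma, a gasdermin of skin, by −3.39. Ccl20, a chemokine named after its value was seen, read 6.98, 5.73 and 5.37 in jnk1-/- controls and 2.95, 3.31, 6.21 and 4.57 after ventilation (−1.77, adjusted p = 0.219). Its 3 wild-type controls lay at the authors' floor, and its response was lower than in wild type (adjusted p = 0.0184), with no size given.

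Among the probes with a higher response in jnk1-/-, Rbm45, an RNA-binding protein, read 5.07, 4.85 and 5.07 in controls and 6.86, 7.26, 8.02 and 7.48 after ventilation, a rise of 2.41 and a difference of 2.24 from wild type (adjusted p = 0.0153). Its controls differed between genotypes by −0.08. Atp7a, the copper transporter, had its 3 jnk1-/- controls at the authors' floor and rose at least 11.9-fold. Its response was higher than in wild type (adjusted p = 0.0184), by an amount that such controls do not measure. Klhl21, a ubiquitin ligase adaptor, Pkp2, a plakophilin of desmosomes, and Lpp, a protein of focal adhesions, differed by 2.86, 2.84 and 2.54. Tymp, thymidine phosphorylase, had a fitted difference of 2.98, with 2 of its 3 jnk1-/- controls at the authors' floor. The next by size were 1110015C02Rik (2.27), the sperm protease Adam1a (2.22) and Tulp4 (2.08). Pappa, which cleaves binding proteins of insulin-like growth factors, had its jnk1-/- controls at the authors' floor and rose at least 6.56-fold, with a higher response than in wild type (adjusted p = 0.0473). The controls of Klhl21, Lpp, Tulp4, Adam1a, Pkp2 and 1110015C02Rik differed between genotypes by −2.87, −2.35, −2.20, −1.93, −1.61 and −1.54.

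**Figure D5:**
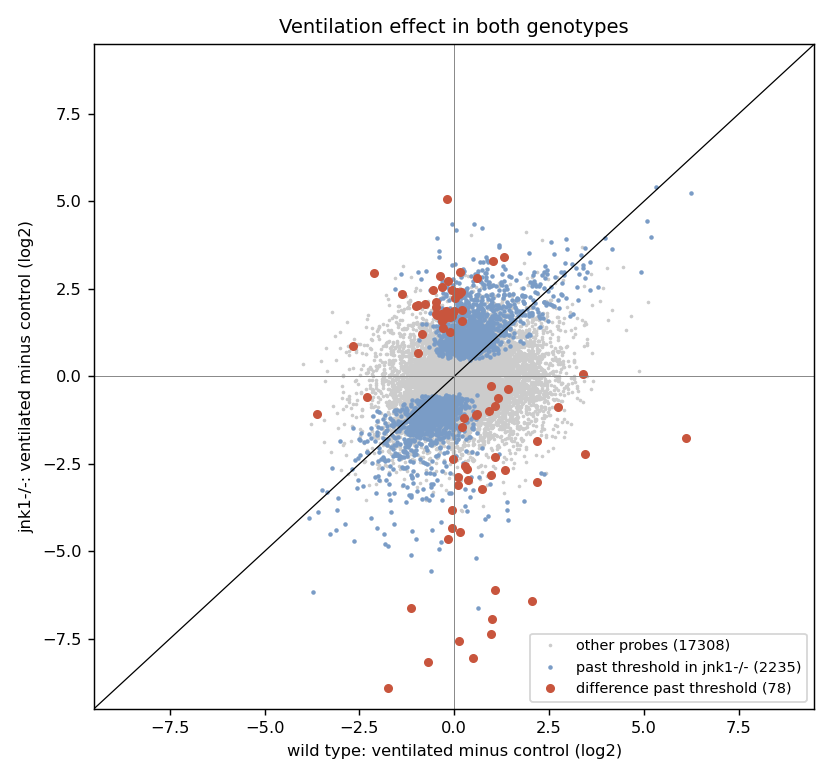
Log2 difference, ventilated minus control, of each of the 19621 probes in wild-type (horizontal axis) and jnk1-/- lungs (vertical axis), with the line of equal response. The blue probes passed the threshold in jnk1-/- alone or in both genotypes without a called difference, and the 78 red probes passed the test of the difference, with Acta1 at 0.98 and −7.37.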

How the data were processed

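The authors deposited, per array, log2 intensity values of 19621 probes that were not normalized between arrays (lowest value −6.86), and a table of log2 intensity values that they normalized, in which 24.5% of values lie at a floor of 3.12. Deposited array medians lay between 4.98 and 6.37, so precision rests on the few arrays per group. Versions of the authors' scanner and array software are not given in the sources used here, and the deposited files carry no quality flags.

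The unnormalized values were brought together by cyclic loess over all pairs of the 14 arrays (span 2/3, 3 passes, lowest values left out of the curves), after which −0.63, the 1st percentile, served as the floor. Group means were fitted in limma 3.58.1 (R 4.3.3) and p-values were adjusted by Benjamini-Hochberg across probes (threshold 0.05). Contrasts taken were ventilation in jnk1-/- lungs and the difference of that effect from wild type, with the genotypes at rest and after ventilation beside them. Whether the samples are separate animals beyond their labels was not tested, and p-values measure the spread between these samples.

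A probe's gene comes from the platform annotation, with 15142 of 15353 single-gene probes matched to RefSeq by Entrez ID. The 54 gene lists hold 1442 genes, 1210 of them measured, each by its brightest probe, and 92 genes stand in more than 1 list. The members, lists and tests were chosen with earlier results of these data known. Named were the 15 largest changes in each direction (threshold passed, 1 gene, no overlap, above the authors' floor), up to 4 members of a list in each direction by adjusted p, the 10 largest differences in each direction, Mapk8 and the study's own genes for this comparison; other members were named after their values were seen. Motifs were searched on both strands of 250 bases before each start. The steps were tested on simulated data. The columns of the deposited tables all belong to the 14 samples. Alternatives for normalization, value table, test, floor, dim probes, block, array weights, arrays in the fit and replicates were tried. Python 3.11.15 with matplotlib 3.10.9 drew the plots.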

Additional observations from a re-analysis of the deposited data

Results flagged for a closer look

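Of 189 named genes, the lowest or highest ventilated jnk1-/- array stood far from the other 3 in 11, or 5.8%, where chance gives about 1 in 20. In 7 of the 11 that array was ventilated replicate 3, at 13.11 for Atf4, 4.77 for Ccl25, 12.12 for Cebpd, 7.49 for Dnajb1, 9.39 for Dynlrb2, 9.72 for Jun and 7.35 for Mafk. In 3 it was replicate 1, at −0.63 for Ackr4, 4.70 for Il18rap and 2.83 for Sfrp2, and in 1 it was replicate 2, at 7.18 for Adam1a. All 4 ventilated arrays of Ackr4 and Sfrp2 lay at the authors' floor, and −0.63 is the floor set in the processing here. Those 2 outliers are thus spread among levels too low to be measured. Ventilated replicate 3 also held the lowest ventilated levels of most heat shock genes that rose, while its level of Dynlrb2 was the highest.

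The response to ventilation differed between jnk1-/- and wild-type lungs past the threshold for 25 named genes, 19 of them with a measured size. It was more negative in jnk1-/- for the muscle genes Acta1 (−8.34), Mylpf (−5.46), Tnnt3 (−4.49), Atp2a1 (−4.28), Myh8 (−3.80) and Tnni2 (−3.74), and for the squamous genes Cnfn (−3.96), Rptn (−3.33) and, outside the list, Gsdma (−3.39) and Defb5 (−3.19). It was also more negative for Them5 (−4.04). It was more positive for Tymp (2.98, with 2 of 3 jnk1-/- controls at the authors' floor), Klhl21 (2.86), Pkp2 (2.84), Lpp (2.54), 1110015C02Rik (2.27), Rbm45 (2.24), Adam1a (2.22) and Tulp4 (2.08). For 6 genes every array of at least 1 group lay at the authors' floor, so that only the test of the difference is given, with an adjusted p of 0.0184 for Ccl20, 0.00189 for Defb4, 0.0426 for Crct1 and 0.0153 for Mt4, all more negative in jnk1-/-, and of 0.0184 for Atp7a and 0.0473 for Pappa, both more positive (limma).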

How the results depend on the processing

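The 2303 probes changed in jnk1-/- lungs (1320 higher, 983 lower) came to 645 (416, 229) when the 7 jnk1-/- arrays were normalized and fitted alone, 658 (423, 235) when only fitted alone, 1245 (771, 474) with control replicates 1 and 2 as 1 sample, and 3771 (1979, 1792) with array weights. The methods' t-test gave 55 (38, 17) after Benjamini-Hochberg adjustment and 3675 (2015, 1660) at an unadjusted p. On leaving out 1 array the counts ran from 1283 to 2637, 791 to 1468 higher and 492 to 1169 lower, with the wild-type arrays left out in turn as an alternative chosen after seeing the data. Quantile normalization (2401), median centring (1875), the authors' values (2955), a trend (3110), no dim probes (2942), no floor (2292) and a higher floor (2484) stayed within 1.5 times. Of 2303 calls, 2198 were shared with the authors' values, all in the same direction.

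The 78 differences between genotypes came to 207 with the authors' values, 187 with a trend, 126 without dim probes, 343 with array weights and 32 to 248 on leaving out 1 array. The replicate block gave 1978 changed probes (1137 higher, 841 lower) and 51 differences. Same-numbered control and ventilated jnk1-/- arrays did not deviate together (correlations −0.325, −0.017 and −0.204), and pairs of unlike number ran from −0.192 to 0.323. Deviations from the means of so few arrays depend on each other, so these values cannot settle whether the numbers pair the samples.

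Of 183 named genes past the threshold, none turned its direction under any alternative. The call was lost by 62 when the 7 arrays were normalized and fitted alone, 26 with control replicates 1 and 2 as 1 sample, 7 under the block, 2 with the authors' values, 4 to 30 on leaving out 1 jnk1-/- array and 166 with the methods' t-test after adjustment. The cause of these changes was not tested. List counts moved by over 1.5 times in 15 of 108 (54 lists, higher and lower) with the authors' values, 2 with the mean over probes, 1 with quantile normalization, 41 with control replicates 1 and 2 as 1 sample, 42, 37 and 26 without control replicate 1, 2 or 3, and 20 to 29 without 1 ventilated array. Where no member of a list had passed in a direction, leaving out 1 jnk1-/- array gave up to 2 lower for NF-kB feedback, and 1 for smooth muscle and thymus (lower) and for dendritic cell and MHC class II, lipogenic, cytochrome P450 and Wnt genes (higher).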
